A study of Mus musculus with 2 samples.

Results

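Troponin is the calcium switch of the thin filament, and the 8 mouse genes that encode its subunits (Tnnt1, Tnnt2, Tnnt3, Tnni1, Tnni2, Tnni3, Tnnc1 and Tnnc2) were examined in single muscle fibers. These are all of the troponin rows among 35163 genes in the table, taken by symbol. They were followed across 171 of 763 cells, which are those with more than 5000 genes detected and under 20% of their counts from mitochondrial genes.

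The myofibers came from a short foot sole muscle, the flexor digitorum brevis (FDB), of 1 untreated C57BL/6J mouse older than 3 months. The muscle was digested with collagenase and its fibers, as whole myocytes or as cut fragments, were placed singly into plates after large particle sorting. RNA was counted by mcSCRB-seq, a plate method that reads the 3′ end of polyadenylated RNA and tags each captured molecule with a unique molecular identifier (UMI), so that PCR copies are counted once. Of the 171 cells, 88 were sequenced on lane 1 and 83 on lane 2, and since both lanes hold cells of the same animal, cells are not replicates here and no p-value was computed.

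Each cell was given the fibre class of its largest myosin heavy chain gene. This gave 117 fast 2X cells (Myh1), 51 fast 2A cells (Myh2), 1 fast 2B cell (Myh4) and 2 slow cells (Myh7). No cell had Myh8 as its largest gene. Cut fragments made up 3 of the fast 2X cells, and all other kept cells were whole myocytes. UMI counts per cell ranged from 28827 to 1542996 with a median of 239581. The medians were 255726 in fast 2X and 206510 in fast 2A cells, and mitochondrial genes made up a median of 5.01% and 6.96% of counts in these classes. Levels are in CPM, UMI counts scaled to the same total in each class (summed over its cells) or in each cell. Limits are exact 95% limits. Those of levels, of ratios and of the slow share of a cell cover counting error only. Those of a percentage of cells take the cells of this mouse as separate draws, and do not cover differences between animals. Markers of mature myofibers (Acta1, Ckm, Ttn, Mylpf and Neb) together held 118583 CPM in fast 2X and 127405 CPM in fast 2A cells, with no cell of these classes under 22440 CPM. No cell barcode with its plate code occurred more than once among the 763 cells.

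Troponin consists of 3 subunits. Troponin C binds calcium, troponin I holds back the actin and myosin interaction when calcium is low, and troponin T anchors the complex to tropomyosin. Each subunit has a form of fast skeletal muscle (Tnnt3, Tnni2 and Tnnc2) and a form of slow skeletal muscle (Tnnt1, Tnni1 and Tnnc1). Cardiac muscle uses Tnnt2 and Tnni3 with the same troponin C gene, Tnnc1, as slow skeletal muscle, and Tnnt2 is also known from embryonic skeletal muscle.

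In GRCm38 with the GENCODE vM21 annotation, 6 of the 8 genes lie as pairs of a troponin I and a troponin T gene. Tnni2 (chromosome 7, 142441808 to 142444410, plus strand) is followed after 54.4 kb by Tnnt3 (142498836 to 142516009, plus strand). Tnnt1 (chromosome 7, 4504570 to 4516382, minus strand) lies 1.92 kb from Tnni3 (4518305 to 4524229, minus strand). Tnni1 (chromosome 1, 135779434 to 135810989, plus strand) lies 25.4 kb before Tnnt2 (135836354 to 135852260, plus strand). The troponin C genes stand alone, with Tnnc1 on chromosome 14 (31208312 to 31211729, plus strand) and Tnnc2 on chromosome 2 (164777161 to 164779967, minus strand). No stretch as long as the cDNA read was shared word for word between transcripts of any of the 8 genes, so a read matching perfectly belongs to 1 troponin.

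The 3 slow genes lie on different chromosomes and, as described further on, varied together, so their upstream sequences are shown. They are the RefSeq windows (GRCm38.p6) before an annotated start, 5′ to 3′ on the gene's strand, ended where an annotated exon of the gene begins, and for Tnni1 the first of 2 such windows is given. Capitals mark matches to an E-box (CANNTG), the short motif known to bind MyoD family factors, and to the MCAT motif (CATTCC). All motifs were searched on both strands.
Tnnt1, chr7:4516005-4516225, minus strand: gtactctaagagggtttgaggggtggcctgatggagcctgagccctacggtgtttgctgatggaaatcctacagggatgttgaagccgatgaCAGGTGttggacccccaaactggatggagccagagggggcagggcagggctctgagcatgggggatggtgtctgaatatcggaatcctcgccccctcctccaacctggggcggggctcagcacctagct
Tnni1, chr1:135799171-135799401, plus strand: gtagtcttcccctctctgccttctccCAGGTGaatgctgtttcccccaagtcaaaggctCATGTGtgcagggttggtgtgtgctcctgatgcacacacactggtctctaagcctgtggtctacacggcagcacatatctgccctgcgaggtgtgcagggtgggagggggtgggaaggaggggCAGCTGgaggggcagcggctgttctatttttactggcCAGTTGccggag
Tnnc1, chr14:31208062-31208311, plus strand: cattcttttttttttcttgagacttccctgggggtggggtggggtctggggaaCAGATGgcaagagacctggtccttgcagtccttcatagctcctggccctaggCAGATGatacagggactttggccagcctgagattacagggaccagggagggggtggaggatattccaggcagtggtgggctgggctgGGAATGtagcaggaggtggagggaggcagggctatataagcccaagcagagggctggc
All of the slow genes had an E-box in this window, which 66.2% of 32851 promoter windows of 250 bases also had. Tnnc1 alone of the 3 had an MCAT match, found in 12.6% of all windows. Tnnt1 had a TATAAA from -30 to -25, in bases covered by an annotated exon and so not printed, and 12.4% of all windows hold one. MEF2, MEF3 (TCAGGTT) and CArG box motifs had no match in these windows. A match is only a description of the letters. The promoter table held 6 of the 8 troponins, without Tnnt3 and Tnni2.

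The slow troponins separated fast 2A from fast 2X myofibers, while the fast troponins were high in both. Tnnt1, the slow troponin T, ranged in fast 2X cells from 0 to 1264 CPM with a median of 230.5 CPM, and in fast 2A cells from 538.9 to 8315 CPM with a median of 2348 CPM. All 51 fast 2A cells lay above the fast 2X median and 43 lay above the highest of the 117 fast 2X cells. Summed over cells, Tnnt1 was 254 CPM (limits 249 to 260) in fast 2X and 2908 CPM (limits 2877 to 2939) in fast 2A, a log2 ratio of 3.51 (limits 3.48 to 3.55) or 11.4-fold. This was the highest ratio of 8649 genes with at least 500 summed counts, the Myh genes of the classes left out.

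Tnni1, the slow troponin I, had a median of 383 CPM in fast 2X cells (72.3 to 1179) and of 1591 CPM in fast 2A cells (406 to 3409). All of the fast 2A cells lay above the fast 2X median, and 39 of 51 above the highest fast 2X cell. Its summed log2 ratio was 2.15 (limits 2.12 to 2.18), the 13th highest. Tnnc1, the slow and cardiac troponin C, had a median of 391 CPM in fast 2X cells (76.2 to 1557) and of 1614 CPM in fast 2A cells (537 to 9272). The classes overlapped more for this gene, since 26 of 51 fast 2A cells lay above the highest fast 2X cell although all 51 exceeded the fast 2X median. Its log2 ratio was 2.48 (limits 2.447 to 2.504), the 8th highest. Thus 3 of 7 troponins with at least 500 counts were at least 2-fold higher in fast 2A cells, against 0.775% of the 8649 genes (2.51% in either direction).

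Tnnt3, the fast troponin T, was the most abundant troponin in both classes. It ranged from 1471 to 17181 CPM in fast 2X cells (median 12198) and from 3065 to 14681 CPM in fast 2A cells (median 10986). No fast 2A cell exceeded the highest fast 2X cell, and 44 of 51 lay below the fast 2X median. Tnni2, the fast troponin I, had a median of 7167 CPM (1063 to 11937) in fast 2X and 6402 CPM (1791 to 8589) in fast 2A cells. The summed log2 ratios were -0.18 for Tnnt3 (limits -0.19 to -0.17) and -0.20 for Tnni2 (limits -0.21 to -0.19). These are small beside the slow genes and are near the median log2 ratio over all genes tested, which was -0.09.

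Tnnc2, the fast troponin C, had a median of 732 CPM in fast 2X cells (0 to 2862) and of 631 CPM in fast 2A cells (55.4 to 2070). Of 51 fast 2A cells, 33 lay below the fast 2X median. The log2 ratio was -0.28 (limits -0.31 to -0.25). None of the fast troponins was at least 2-fold lower, which 1.73% of all genes tested were. The exons of Ube2c, on the other strand, cover 94.2% of the last 500 exon bases of Tnnc2, and the counting was by zUMIs with its default settings, whose strand setting the sources used here do not spell out. Reads from both genes may therefore be mixed or left out as ambiguous. Ube2c, a ubiquitin-conjugating enzyme of cell division, itself held 89.4 CPM with counts in 167 cells, while the division genes Mki67 and Top2a were at 0.751 and 2.31 CPM. The other 7 troponins had no exon of another gene in their last 500 exon bases.

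**Figure D1:**
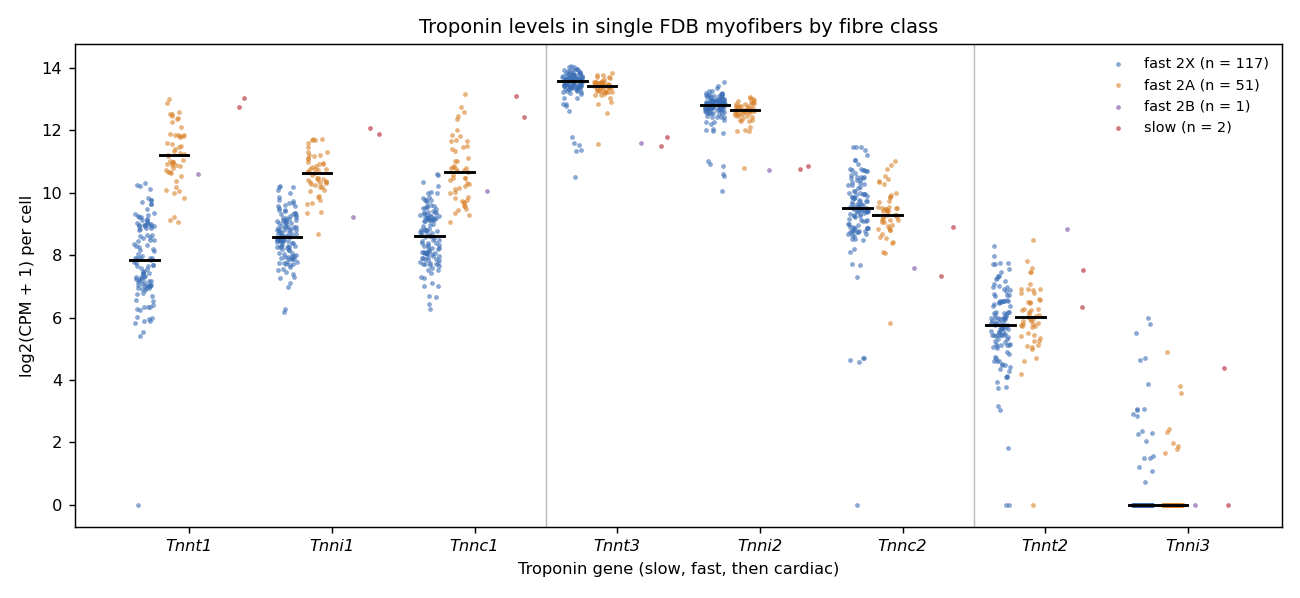
Each point is 1 of 171 cells, with the level of each troponin gene as log2(CPM + 1) on the y axis, coloured by fibre class, and black bars give the medians of the fast 2X and fast 2A cells. The slow genes Tnnt1, Tnni1 and Tnnc1 lie higher in fast 2A than in fast 2X cells, the fast genes Tnnt3, Tnni2 and Tnnc2 overlap, and Tnni3 is at 0 in most cells.

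The ratios were repeated within plates and lanes. Of 8 plates, 7 had at least 3 cells of both classes, and Tnnt1 was higher in fast 2A cells in each of them, with log2 ratios from 2.34 to 4.02. Tnni1 gave 1.59 to 2.66 and Tnnc1 1.70 to 2.98, again above 0 in 7 of 7 plates. The fast genes were lower in fast 2A cells in 7 of 7 plates for Tnnt3 (-0.39 to -0.02) and Tnni2 (-0.36 to -0.09), and in 6 of 7 for Tnnc2 (-0.88 to 0.08). Lane 1 and lane 2 gave 3.28 and 3.73 for Tnnt1, 2.02 and 2.25 for Tnni1, and 2.31 and 2.62 for Tnnc1. The slow ratios depended in part on cells with Myh7. Of 15 cells whose Myh counts were 5% or more Myh7, 11 were fast 2A and 2 fast 2X cells. The 2 slow cells among them were not part of the ratios. Without these 15 cells, a check added after the data were seen, the log2 ratios were 2.97 for Tnnt1, 1.89 for Tnni1 and 1.89 for Tnnc1.

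**Figure D2:**
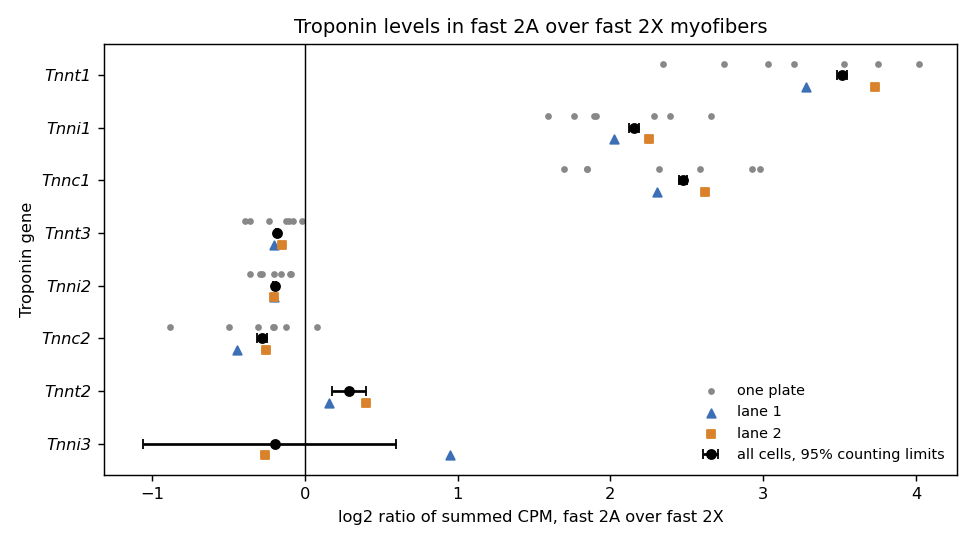
Black points give the log2 ratio of summed CPM in fast 2A over fast 2X cells for each troponin with 95% counting limits, grey points the same ratio within each of 7 plates (not drawn for Tnnt2 and Tnni3), and triangles and squares lanes 1 and 2. All plates lie above 1 for the slow genes and below 0.1 for the fast genes.

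The isoform balance was then taken within each cell, as the slow gene's percent of the slow and fast counts of a subunit. Scaling to the cell's total does not change this share, although it may still vary with depth, as given further on. For troponin T (Tnnt1 of Tnnt1 and Tnnt3) the slow share was 0 to 13.7% in fast 2X cells with a median of 1.97%, and 4.25 to 58.1% in fast 2A cells with a median of 16.9%. For troponin I (Tnni1 of Tnni1 and Tnni2) it was 0.926 to 44.2% with a median of 5.34%, and 8.07 to 45.6% with a median of 20.05%. For troponin C (Tnnc1 of Tnnc1 and Tnnc2) it was 6.68 to 100% with a median of 32.4%, and 37.0 to 93.9% with a median of 69.5%. The fast 2X cell with 44.2% slow troponin I was also the shallowest, with 77 counts of both genes, and the next highest was at 17.9%. The fast 2X cell with 100% slow troponin C had 10 counts of Tnnc1 and none of Tnnc2.

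The class medians differed by 14.9 percentage points for troponin T, 14.7 for troponin I and 37.1 for troponin C. Within plates the differences were 12.3 to 24.98, 9.65 to 18.4 and 21.0 to 51.5 points, with fast 2A cells higher in all 7 plates for each subunit. All 51 fast 2A cells exceeded the fast 2X median in each of the 3 subunits. For troponin T 35 of them also exceeded every fast 2X cell, whereas for troponin C none did. Adding the counts of Ube2c to Tnnc2 left the median slow share of troponin C at 31.3% in fast 2X and 66.8% in fast 2A cells. Reads left out as ambiguous would be in neither gene, so this sum cannot show how many Tnnc2 counts were lost.

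Within a cell, the subunits did not stand at the same point between fast and slow. Troponin C had the highest slow share in 171 of 171 cells. Reads of Tnnc2 left out through its overlap with Ube2c would raise this share, and their number was not tested. Troponin I exceeded troponin T in 142 of 171, and this order differed between the classes, with 113 of 117 fast 2X cells but 28 of 51 fast 2A cells. The shares were also counted per kb of the longest annotated transcript, a scale that 3′ counting does not call for. It lowers the share of Tnni1, whose transcript of 2.153 kb is longer than the 0.895 kb of Tnni2. The median slow share of troponin I in fast 2A cells was then 9.44% in place of 20.05%. On that scale the median for troponin T was 17.1%, while troponin C remained highest at 68.9%. In fast 2X cells the medians per kb were 2.01% for troponin T and 2.29% for troponin I. Troponin I exceeded troponin T in 60 of 117 fast 2X and 2 of 51 fast 2A cells on this scale. The order of T and I by UMI counts was thus not kept after this division by length in either class.

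With at least 50% slow counts called mainly slow, 88 of 171 cells (51.5%, limits 43.7 to 59.2) had no mainly slow subunit, 80 (46.8%, limits 39.1 to 54.6) had 1, 1 had 2 and 2 had all 3. In the 80 cells the subunit was troponin C. Among fast 2X cells, 34 of 117 (29.1%, limits 21.0 to 38.2) were mainly slow in troponin C and 0 in T or I (upper limit 3.10%). Counting limits of the troponin C share lay above 50% in 22 of these 34 cells, some of which had few counts of the pair, and 25 remained with the counts of Ube2c added to Tnnc2. Among fast 2A cells, 46 of 51 (90.2%) were mainly slow in troponin C, 1 in troponin T and 0 in troponin I. For troponin C the limits lay above 50% in 41 of the 46, and with Ube2c added 45 were called. By these counts, a fiber with a fast troponin T and I and a slow troponin C transcript pool was therefore the most frequent fast 2A cell, with 45 of 51. Any Tnnc2 reads left out as ambiguous are not in these counts.

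**Figure D3:**
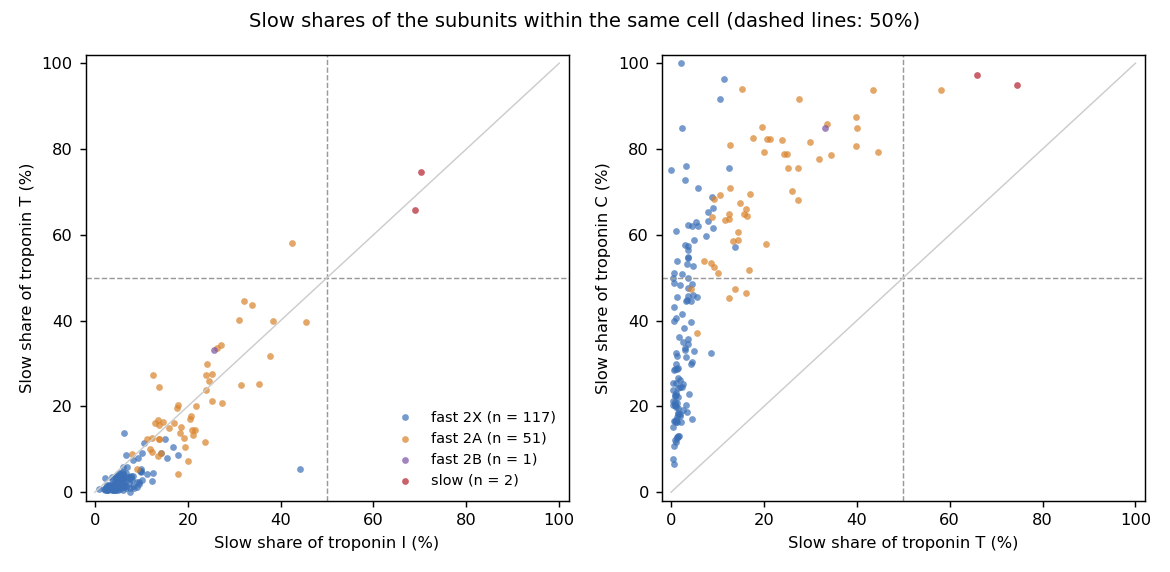
Each point is a cell, with the slow share of troponin I against T on the left and of troponin T against C on the right in percent, coloured by fibre class, with dashed lines at 50% and a grey line where both shares are equal. All cells lie above the line on the right, and only the 2 slow cells lie past 50% for troponin T and I together.

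The 2 slow cells were the only ones mainly slow in every subunit. Their slow shares were 74.6 and 65.8% for troponin T, 70.3 and 68.9% for troponin I, and 94.9 and 97.2% for troponin C, with Myh7 at 76.1 and 77.3% of the Myh counts. Tnnt1 was 8517 and 6837 CPM in these cells. They still held Tnnt3 at 2905 and 3558 CPM and Tnni2 at 1846 and 1729 CPM, so that the fast forms were not absent from them. The cell mainly slow in 2 subunits was a fast 2A cell with 58.1% slow troponin T, 42.5% slow troponin I and 93.8% slow troponin C, and with 43.2% Myh7. The single fast 2B cell had slow shares of 33.1% for troponin T, 25.7% for troponin I and 84.9% for troponin C, each above the fast 2A median. Its fast forms were low, with Tnnt3 at 3128, Tnni2 at 1708 and Tnnc2 at 191 CPM. The fast 2A medians were 10986, 6402 and 631 CPM. Its slow forms, Tnnt1 at 1549, Tnni1 at 591 and Tnnc1 at 1074 CPM, also lay below the fast 2A medians. As 1 cell, it does not stand for 2B fibers.

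The slow shares were higher with a higher share of Myh2 among Myh1 and Myh2 counts. From under 20% (48 cells) through 20 to 30% (32), 30 to 50% (40) and 50 to 70% (14) to 70% and over (37), the median slow share of troponin T was 1.36, 2.02, 4.07, 12.4 and 21.3%. For troponin I it was 3.61, 5.05, 8.76, 15.1 and 21.7%. For troponin C it was 21.7, 42.9, 50.4, 61.1 and 78.5%. In every one of these bins the median was highest for troponin C, a share that Tnnc2 reads left out through the overlap with Ube2c would raise. In finer bins, the medians from 80 to 90% (14 cells) were 26.3% for troponin T and 26.4% for troponin I, and the 2 cells at 90% and over had medians of 33.1 and 27.8%. The cells of neighbouring bins overlapped in each subunit. The 2 slow cells and the 2B cell lie in the 30 to 50% bin and hold its highest values for troponin T. Without them the medians of its 37 cells, all fast 2X, were 3.75% for troponin T, 8.26% for troponin I and 48.3% for troponin C.

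**Figure D4:**
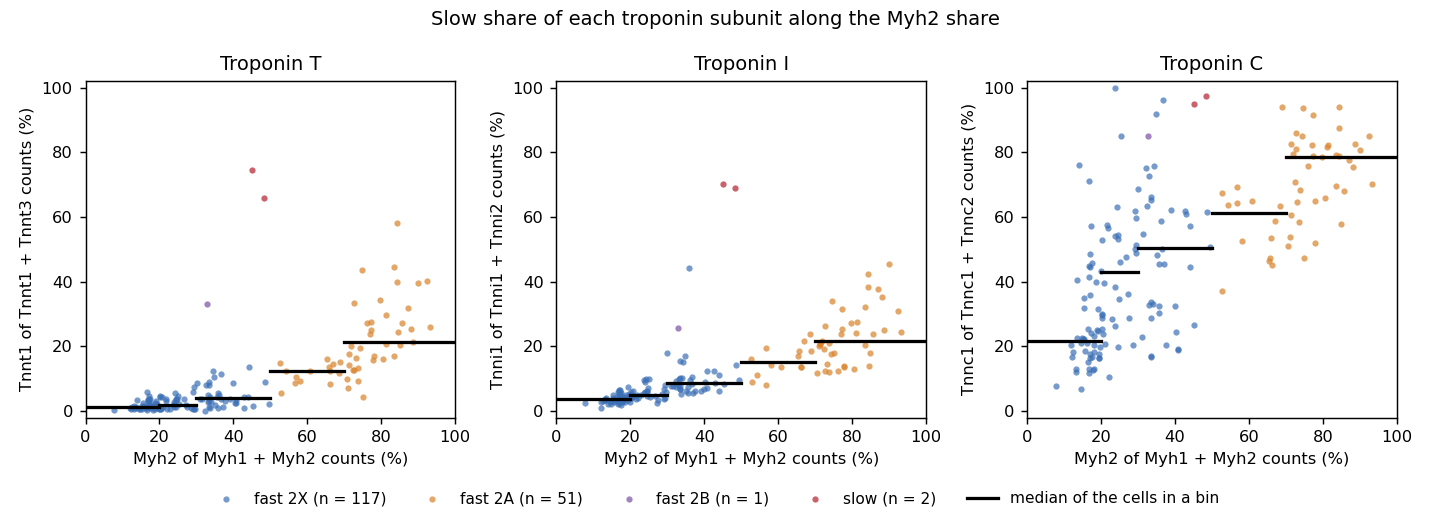
The x axis gives Myh2 as a percent of Myh1 and Myh2 counts in a cell and the y axis the slow share of troponin T, I or C in percent, with cells coloured by fibre class and black lines at the median of each bin. The medians increase from 1.36 to 21.3% for T, from 3.61 to 21.7% for I and from 21.7 to 78.5% for C.

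Within fast 2X cells (n = 117) the slow share of troponin I followed the Myh2 share with a Spearman correlation of 0.76, that of troponin T with 0.46 and that of troponin C with 0.47. Repeated within the 7 plates that held at least 10 fast 2X cells, a check added after the data were seen, the correlations were above 0 in 7 of 7 plates for each subunit. The range was 0.65 to 0.88 for troponin I (median 0.74), 0.27 to 0.84 for troponin T (median 0.54) and 0.07 to 0.70 for troponin C (median 0.46). In fast 2A cells (n = 51) the correlations with the Myh2 share were 0.75 for troponin T, 0.60 for troponin I and 0.49 for troponin C, which were not repeated within plates. These correlations are over cells of 1 mouse that share libraries and depth, and they are given as descriptions.

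With the Myh7 share, the pooled correlation over fast 2X cells was 0.70 for troponin T and 0.32 for troponin I, but the correlations varied widely between plates. For troponin T the 7 plates ranged from -0.21 to 0.79 with a median of 0.29, 5 of them above 0, and in 1 of 7 plates it exceeded the correlation with Myh2. For troponin I the range was -0.67 to 0.48, with 4 above 0. Both measures differed between plates. The plate median of the slow troponin T share in fast 2X cells ranged from 0.553 to 4.55% and that of the Myh7 share from 0.0337 to 1.71%, and the plate at 0.553% slow troponin T had 0.0372% Myh7. The part of the plate in the low Tnnt1 level of fast 2X cells was not tested.

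The fast 2A cells with at least 5% Myh7 (11 of 51) had a median slow share of 39.7% for troponin T (15.3 to 58.1), 32.1% for troponin I and 85.8% for troponin C. The other 40 had medians of 15.3% (4.25 to 29.8), 17.9% and 65.4%. The ranges of troponin T overlapped between 15.3 and 29.8%. Only 2 fast 2X cells reached 5% Myh7, and their slow troponin C shares of 91.7 and 96.2% were exceeded in that class only by the cell at 100%. These shares rest on 33 counts of Tnnc1 and 3 of Tnnc2 in the first cell, and on 128 and 5 in the second. Both cells were low in Tnnt3, at 1471 and 3102 CPM against a fast 2X median of 12198 CPM.

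The slow genes varied together from cell to cell. Over the 171 cells the Spearman correlation of CPM was 0.88 for Tnnt1 and Tnnc1, 0.85 for Tnnt1 and Tnni1 and 0.84 for Tnni1 and Tnnc1. Inside fast 2X cells these were 0.72, 0.61 and 0.64, and inside fast 2A cells 0.79, 0.73 and 0.76. Within the 7 plates of fast 2X cells the medians were 0.79, 0.62 and 0.71, all above 0, with the lowest plate at 0.11 for Tnnt1 and Tnnc1. Of the fast genes, Tnnt3 and Tnni2 gave 0.70 over all cells, 0.66 in fast 2X and 0.57 in fast 2A cells, and 0.60 to 0.84 within the plates of fast 2X cells. Tnnc2 followed them less, with 0.40 for Tnnt3 and 0.42 for Tnni2 over all cells and 0.11 and 0.19 in fast 2A cells. Slow and fast forms of the same subunit were not strongly opposed in fast 2X cells, with -0.03 for troponin T, 0.05 for troponin I and 0.00 for troponin C, and in fast 2A cells the values were -0.35, -0.35 and 0.22.

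Of the neighbouring gene pairs, only Tnni2 and Tnnt3 encode forms that both belong to fast muscle, and they had the highest correlation of the neighbours (0.70). Tnni1 and Tnnt2 gave 0.26, and Tnnt1 and Tnni3, the closest pair, gave 0.01. The latter rests on few counts, since Tnni3 had 83 in all. Thinned to the same depth, Tnni2 and Tnnt3 gave 0.65.

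**Figure D5:**
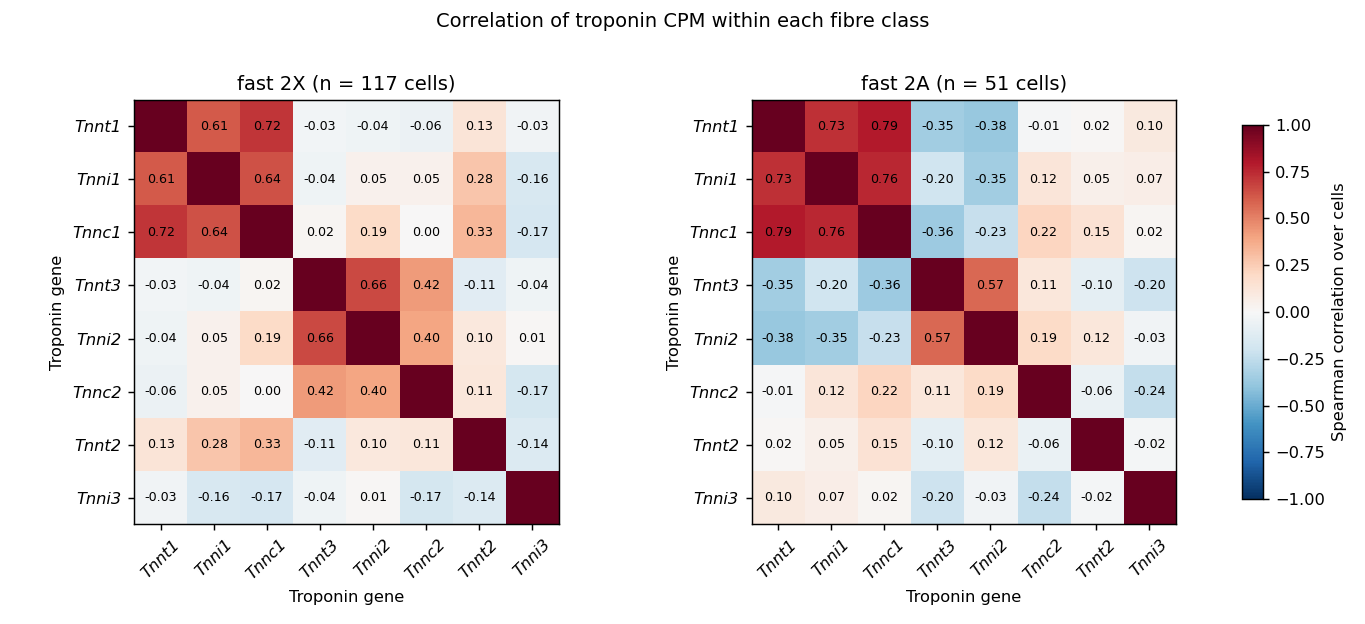
Colour and printed values give the Spearman correlation of CPM between each pair of troponin genes over the fast 2X cells (left) and the fast 2A cells (right). The block of Tnnt1, Tnni1 and Tnnc1 lies between 0.61 and 0.79, and Tnnt3 with Tnni2 at 0.66 and 0.57.

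The genes outside the family whose CPM followed each troponin best over the 171 cells, among genes with at least 500 counts, differed between slow and fast forms. For Tnnt1 they were Myl2 (0.79), Myl3 (0.77), Ldhb (0.76), Coq8a (0.70) and Fxyd6 (0.70). Myl2 and Myl3 encode slow and ventricular myosin light chains and Ldhb the heart form of lactate dehydrogenase. For Tnnc1 they were Myl2 (0.75), Myl3 (0.74), Ldhb (0.70), Fxyd6 (0.69) and Myh7 (0.66), a gene that also makes the classes. Tnni1 had Ldhb first (0.81), followed by Myoz2 (0.78), Fxyd6 (0.77), Coq8a (0.73) and Actn2 (0.73), without the myosin light chains. Over the fast 2X cells of all plates, Tnnt1 gave 0.78 with Myl2 and 0.76 with Myl3, and Tnnc1 gave 0.60 and 0.65. Within single plates of fast 2X cells these correlations were lower. The medians were 0.15 with Myl2 and 0.28 with Myl3 for Tnnt1, and 0.14 and 0.36 for Tnnc1. Ldhb gave medians of 0.54 with Tnnt1 and 0.63 with Tnni1, and Myoz2 gave 0.77 with Tnni1, above 0 in 7 of 7 plates in each case.

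For Tnnt3 they were Ckm (0.81), Aldoa (0.74), Gm18795 (0.74), Pfkm (0.71) and Pygm (0.71). Ckm is muscle creatine kinase, and Aldoa, Pfkm and Pygm are enzymes of sugar and glycogen breakdown. For Tnni2 they were Mylpf (0.78), Gm18795 (0.72), Ckm (0.71), Pvalb (0.68) and Mylf-ps (0.68). For Tnnc2 the correlations were lower, with Mylf-ps (0.64), Gpx4 (0.59), Atp5g2 (0.57), Gapdh (0.55) and Rpl24 (0.55). All of the genes named for the 3 fast troponins were above 0 in 7 of 7 plates of fast 2X cells, with medians from 0.56 to 0.84.

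The subunits also differed in their total. Slow and fast forms summed, troponin T had a median of 12927 CPM per cell, troponin I 7759 CPM and troponin C 1470 CPM. Divided by transcript length these were 11982, 8065 and 2074 CPM per kb, in the same order. The complex holds the subunits in equal numbers, so these are transcript levels and not amounts of protein. The ratio of T to I counts was narrow, 1.18 to 2.43 with a median of 1.66, while that of T to C ranged from 1.23 to 25.5 with a median of 8.27. The median T to C ratio was 10.2 in fast 2X and 5.52 in fast 2A cells, and total troponin C was 1188 and 2155 CPM in these classes. Tnnc2 reads left out through the overlap with Ube2c would be missing from the troponin C totals.

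Total troponin was lowest in a fast 2X cell with 3290 CPM, against a median of 22418 CPM. That cell, with 120365 UMI counts and 6.45% mitochondrial counts, had slow shares of 10.6% for troponin T, 16.9% for troponin I and 91.7% for troponin C. The next lowest 4 cells, at 4549 to 6244 CPM, were also fast 2X cells, and their slow troponin C shares were 45.5 to 100%. The cell at 4549 CPM was a cut fragment with 13.7% mitochondrial counts. Those at 4772, 6106 and 6244 CPM were whole myocytes with 3.91, 19.7 and 16.9%. The low level was not particular to troponin. In all of these lowest cells Acta1 was at 5666 to 9678 CPM, against 29388 CPM over all kept cells. The Myh genes of the classes together held 1599 to 3365 CPM in them. Over the 171 cells total troponin had a Spearman correlation of -0.05 with the UMI count and of -0.08 with the mitochondrial share. Tnnc2 CPM followed the UMI count at 0.27 and the mitochondrial share at -0.29. The slow shares of troponin T, I and C followed the UMI count at -0.23, -0.26 and -0.32. Inside fast 2X cells these were -0.28, -0.35 and -0.36, and inside fast 2A cells -0.08, 0.02 and -0.12. The part of depth in the slow shares was not tested beyond thinning. Thinned, the medians for troponin C were 32.3% in fast 2X and 69.2% in fast 2A cells. They were 1.96 and 17.9% for troponin T, and 5.08 and 21.1% for troponin I.

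Of the cardiac forms, Tnnt2 was found at low level in most cells and Tnni3 was not above background. Tnnt2 ranged from 0 to 315 CPM in fast 2X cells with a median of 53.7 CPM, and from 0 to 355 CPM in fast 2A cells with a median of 63.2 CPM. Counts were found in 168 of 171 cells (98.2%, limits 94.96 to 99.6). After thinning to 28827 counts it was found in 129 (75.4%), against 21.1% for Pax7, 17.0% for Hbb-bs and 6.43% for Ptprc, genes of satellite cells, red blood cells and leukocytes that a myofiber should lack. Other such genes were more widespread. Before thinning, the endothelial genes Pecam1 and Flt1 had counts in 151 and 145 cells. They held 24.8 and 27.4 CPM over all kept cells, against 70.9 CPM for Tnnt2. The part of RNA from other cells in the Tnnt2 counts was not tested. Summed Tnnt2 was 64.5 CPM in fast 2X and 78.9 CPM in fast 2A cells, a log2 ratio of 0.29 (limits 0.18 to 0.40), with 0.16 on lane 1 and 0.40 on lane 2. The fast 2B cell had the highest value of all, 455 CPM from 117 counts.

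Tnni3 had counts in 31 of 171 cells (18.1%, limits 12.7 to 24.7), fewer than Ptprc with 35.1%, and in 8 (4.68%) after thinning. Its 83 counts came to 1.63 CPM in fast 2X and 1.43 CPM in fast 2A cells, with a log2 ratio of -0.19 whose limits of -1.06 to 0.60 include 0. Of 5 further cardiac markers, Myl7 had no count in any cell and Nppa had 9. Ryr2, Myh6 and Myl4 held 77.3, 51.9 and 17.3 CPM, and Myh6 was 12.4 CPM in fast 2X and 108 CPM in fast 2A cells. Summed cardiac markers were 0 to 694 CPM in fast 2X and 33.6 to 1660 CPM in fast 2A cells. Myh6 is a near copy of Myh7, and reads of these genes may have been split between them.

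Markers of satellite cells and of non-muscle cells had medians of at most 50.5 CPM in both classes, but single cells were high, and the slow shares followed some of the lists weakly. Endothelial markers (5 of 5 detected) were 0 to 1615 CPM per fast 2X cell and 0 to 702 CPM per fast 2A cell, and their sum followed the slow share of troponin C at 0.30 and of troponin T at 0.13. Fibroblast, smooth muscle and pericyte, and red blood cell lists, with all markers detected, gave 0.27, 0.26 and 0.22 for troponin C and 0.10, 0.05 and 0.14 for troponin T. The highest fast 2X cells reached 10306 CPM for smooth muscle and pericyte, 3706 CPM for fibroblast, 3082 CPM for Schwann cell and 787 CPM for red blood cell markers. Among fast 2A cells the highest were 535, 1717, 406 and 239 CPM. Satellite cell, Schwann cell and leukocyte lists gave at most 0.10 for either. The part of these cells in the result was not tested. Genes of immature or denervated fibers gave -0.64 for troponin T and -0.70 for troponin C, a list of 6 in which Myh8 held most counts, with 833 CPM in fast 2X and 158 CPM in fast 2A cells. Chrna1 (156 and 126 CPM) and Chrng (0.562 and 0.42 CPM) were also lower in fast 2A cells. Myh3 (15.5 and 77.0 CPM), Ncam1 (81.9 and 96.5 CPM) and Myog (3.78 and 6.21 CPM) were higher there, so the sum does not speak for every gene of the list.

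The rest of the thin filament did not follow the slow troponins as a group. Of 21 tested genes for actin, tropomyosin, nebulin and filament ends, 1 was at least 2-fold higher in fast 2A cells and 2 were at least 2-fold lower, with a median log2 ratio of -0.06, beside 0.775% higher and 1.73% lower and a median of -0.09 over all genes tested. The higher gene was Tpm3, the slow tropomyosin, with 328 against 56.4 CPM (log2 2.54), followed by Xirp2 (0.68). The lowest were Acta2 (-1.28), the smooth muscle actin, and Lmod1 (-1.14). Of 18 genes of the slow programme outside troponin, 11 were at least 2-fold higher (0.775% of all genes) and none lower (1.73%), with a median of 1.49. This list was led by Myl2 (3.15) and Myh6 (3.13), while Mybpc1 (-0.05) and Mb (0.52) were lowest. Of 20 genes of the fast programme, 6 were at least 2-fold lower (1.73% of all genes) and none higher (0.775%), with a median of -0.70. Myom2 (-2.46) and Mybpc2 (-2.13) were lowest there and Myoz3 (-0.10) and Tpm1 (-0.14) highest. The fast troponins, at -0.18 to -0.28, thus lay nearer to Tpm1 than to most of this list.

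In the 592 cells that did not pass the filters, 378 had at least 50 Myh counts and could be classed, with 309 fast 2X, 54 fast 2A, 14 fast 2B and 1 slow. Their median mitochondrial share was 53.9%. The slow genes were again higher in fast 2A cells, with log2 ratios of 1.97 for Tnnt1 (limits 1.89 to 2.05), 1.31 for Tnni1 and 1.42 for Tnnc1. The fast genes had the opposite sign from the kept cells, with 0.31 for Tnnt3, 0.41 for Tnni2 and 0.59 for Tnnc2. The median log2 ratio over 1955 genes with at least 500 counts was 0.23 in these cells, and mitochondrial genes took 45.3% of fast 2A and 54.3% of fast 2X counts. With mitochondrial genes left out of the totals the fast genes were at 0.05, 0.15 and 0.33, against -0.15, -0.16 and -0.24 in the kept cells. The direction of the small differences in the fast genes therefore depended on which cells were used, and that of the slow genes did not. All of the slow and fast genes were lower in these cells than in the kept cells, and Tnnc2 fell most. Tnnc2 was 127 CPM in these cells against 912 CPM in the kept cells, and Tnnc1 was 376 against 907 CPM. Tnnt1 was 386 against 958 CPM and Tnni1 310 against 727 CPM. Tnnt3 was 4045 against 11427 CPM and Tnni2 2487 against 6921 CPM.

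Among these cells the median slow share of troponin T was 6.12% in fast 2X and 15.7% in fast 2A cells, and that of troponin I 9.38 and 18.7%. In the kept cells these were 1.97 and 16.9% for troponin T, and 5.34 and 20.05% for troponin I. Both were thus higher in the left-out fast 2X cells and slightly lower in the left-out fast 2A cells. For troponin C, over the 91 fast 2X and 28 fast 2A cells with at least 20 counts of both genes, the medians were 75 and 86.6%, above the 32.4 and 69.5% of the kept cells. The 14 fast 2B cells had a median slow share of 2.36% for troponin T and 6.78% for troponin I, whereas the kept fast 2B cell had 33.1 and 25.7%.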

How the data were processed

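Per the labels and the study's methods, the authors aligned mcSCRB-seq reads to GRCm38 with STAR 2.5.4b and obtained UMI counts from zUMIs. Deposited was a table with 763 cell columns and 10 description rows above the gene rows. Because some description rows are percentages, the deposited columns were handled as estimated counts, but every gene value was whole and none was rounded. The described UMI totals exceeded the summed gene rows by a median of 3.11% in kept cells, and the summed rows were used as totals. Cells with more than 5000 genes and under 20% mt- counts were kept, and no doublet caller was run. Python 3.11.15, scipy 1.17.1, edgeR 4.0.16 and DESeq2 1.42.0 (scaling factors only) were used. Ratios have conditional binomial limits, levels Poisson limits and shares Clopper-Pearson limits, all at 95%. The calculation of ratios was tested on simulated data. Genes with at least 500 counts in both classes summed formed the background, and 2-fold counted as a call. Named genes were the 8 troponins, the 5 most correlated genes for each of 6, and the 2 highest and 2 lowest of each list. The gene family, though taken whole by symbol, and the lists were chosen with earlier results of these data known. Lanes are of the same mouse, so the spread between them may be technical.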

Additional observations from a re-analysis of the deposited data

How the results depend on the processing

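The data are from 1 mouse, so no setting could test a difference between animals, and the spread used to judge a change was the SD between the 2 lanes, which is small for some results. Of the values recomputed under the alternatives, Tnnt1, Tnni1 and Tnnc1 were above 0 and Tnnt3, Tnni2 and Tnnc2 below 0 in all 14 for each gene. The log2 ratio of Tnni3 changed sign, to 0.42 with ribosomal RNA genes left out of the mitochondrial share, 0.20 without 18 cells near a class boundary and 0.14 without cells of at least 5% Myh7, and was -0.26 on lane 2 (without replicate 1) and 0.95 on lane 1 (without replicate 2), on 83 counts in all.

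The median log2 ratio of the slow genes, 2.48, was 2.25 thinned, 2.22 and 2.05 as the mean and median over cells and 1.89 without Myh7 cells. That of the fast genes, -0.20, was -0.17 with the other mitochondrial share, -0.21 with more than 10000 genes, -0.20 without boundary cells, -0.16 thinned, -0.20 within plates, -0.21 without the 10 deepest cells, -0.15 and -0.16 as mean and median over cells, -0.11 with TMM, -0.10 with median-of-ratios factors, -0.12 without Myh7 cells, and -0.203 and -0.199 on the single lanes. Genes at least 2-fold higher and lower numbered 67 and 150, and 3059 and 8855 with no filter but 1 summed count, and 79 and 155 were lower on lanes 1 and 2.

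The difference in slow share of troponin T, 14.9 points, was 13.4 with the other mitochondrial share, 16.7 without boundary cells, 19.6 from summed counts, 13.3 without Myh7 cells, and 14.9 and 16.6 on single lanes. That of troponin I, 14.7, was 12.6, 15.8, 16.2 and 12.7 under the first 4 of these, 15.98 thinned and 7.15 per kb. That of troponin C, 37.1, was 28.6 to 39.9 on single lanes. Cells with at least 1 mainly slow subunit were 48.5%, 59.4% with the other mitochondrial share and 68.4% at a threshold of 30%. Those with at least 2 were 1.75%, 8.77% at 30% and 0% without Myh7 cells. From lowest to highest bin of the Myh2 share, the difference was 24.9 points for troponin T and 22.7 for troponin I with 10-point bins, against 19.97 and 18.1, and 56.1 for troponin C thinned, against 56.8. Thinned, Tnnt2 was found in 75.4% and Tnni3 in 4.68% of cells, and Tnni2 and Tnnt3 correlated at 0.65. The cause of these changes was not tested.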
